A study of Homo sapiens with 12 samples.

Results

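The 10 genes described here code for ATF4, the transcription factor that carries the integrated stress response to the nucleus, and for the factors and regulators around it: ATF5, ATF3, DDIT3 (also called CHOP), CEBPB, CEBPG, TRIB3, CHAC1, NUPR1 and DDIT4. They were taken by symbol from a table of 53717 genes, and all 10 were in it. The RNA came from H9, a long-used line of human embryonic stem cells grown in RSeT, a medium sold for naive-type culture, and was read as poly(A) libraries. Lipofection brought in 1 of 3 fluorescein-tagged oligos (25 nM), and the cells that took up dye were sorted out at 48 h. ASO-L1 is an antisense oligo against LINE1, a retrotransposon with very many genomic copies, sO-L1 is the LINE1 sense oligo and ASO-Ctr is an antisense oligo without a target. All 3 groups also received 0.7 uM Trans-ISRIB, 5 uM emricasan, which blocks caspases, and 10 uM Y-27632, and these were withdrawn after 24 h. Trans-ISRIB keeps the guanine exchange factor eIF2B active when eIF2 is phosphorylated, so every group, the controls included, had been exposed to a compound that acts upstream of ATF4. Each group had 4 libraries, 12 in all, from 1 cell line. The labels do not say that replicates were separate cultures, so p-values measure the spread between these libraries, which may be technical.

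A set of kinases phosphorylates the translation initiation factor eIF2 when a cell meets unfolded protein, amino acid shortage, double-stranded RNA or haem shortage. General translation then slows, while mRNAs with upstream reading frames in their leaders, those of ATF4, ATF5 and DDIT3 among them, are translated more. ATF4 is a bZIP protein, a class that binds DNA as a pair through a basic leucine zipper, and it pairs with C/EBP proteins on a composite element at genes of amino acid supply and of the stress response itself. Because much of this control lies in translation, RNA levels are a partial view of it, and protein was not measured in these data.

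Promoter sequence is given first, since ATF4 acts through a known DNA element and AP-1, the FOS and JUN dimer, through another. RefSeq start sites on GRCh38.p14 gave windows of 300 bases, 250 before to 50 after the start, for 9 of the 10 genes (18 windows). Both strands were searched for the C/EBP-ATF composite element (TGATGNAAN), the cyclic AMP element (TGACGTCA) and the AP-1 element (TGANTCA). No stretch can match more than 1 of these patterns from the same starting letter. The composite element was in the windows of 3 of 9 genes, against 4.45% of all 27305 symbols with a window. Counted by window it was in 3 of 18, against 3.61% of all 35116 windows. The 3 stretches are shown with the element in capitals, each read along the gene's own strand.
ATF3: aaggtcaggaTGATGGAAGgctgtcatatt
CHAC1: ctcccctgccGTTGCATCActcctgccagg
CEBPG: gcgcggcgtcTGATGCAACctgccggcaac
These stretches are chr1:212565206-212565235, chr15:40953251-40953280 and chr19:33374061-33374090, all on the plus strand. The element lies 191, 210 and 42 bases before the start, in that order, and that of CHAC1 is on the opposite strand. The AP-1 element was in the windows of 2 of 9 genes, against 9.37% of all symbols. By window it was in 3 of 18, overlapping windows of DDIT3 counted separately, against 7.71% of all windows.
DDIT3: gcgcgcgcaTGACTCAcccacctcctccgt
ATF5: ggagagtgctgTGACTCAtgctggactcta
These are chr12:57520735-57520764 on the minus strand, 241 bases before the start, and chr19:49928707-49928736 on the plus strand, 188 bases before it. The stretches of CHAC1 and ATF5 overlap an annotated exon of the same gene. The cyclic AMP element was in the windows of 0 of 9 genes, against 2.25% of all symbols. A match is a stretch of letters and no evidence of binding, and the windows leave out more distant elements.

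Reads counted in genes came to 22.8 to 55.1 M per library, so that the floor of 3 reads lay at 0.0534 to 0.128 CPM (a gene's counts over the library's total, brought to 1 scale by TMM). All 8 stem cell markers were expressed in every group, and their summed level was 7370 to 7958 CPM over the 12 libraries. Within that sum DPPA4 was higher in ASO-L1 than in ASO-Ctr (log2 0.19), and LIN28A, SALL4 and L1TD1 were lower (-0.22, -0.13 and -0.10). The naive-type markers summed to 75.8 to 95.9 CPM in ASO-Ctr, 82.1 to 108 CPM in sO-L1 and 111 to 149 CPM in ASO-L1. Of the 6 tested, KLF4, DNMT3L, DPPA3 and TFCP2L1 were higher in ASO-L1 than in ASO-Ctr (2.35-fold, 1.97-fold, 1.34-fold and 1.24-fold) and DPPA5 was lower (log2 -1.04), while KLF17 and ARGFX averaged under 1 CPM in every group. Of the fibroblast markers, LUM had 0 reads, and COL3A1 and DCN had 6 and 2 reads over the 12 libraries. The fibroblast list summed to 117 to 143 CPM in ASO-Ctr and 115 to 135 CPM in ASO-L1, mostly COL1A2 and THY1. That similar sum held THY1, 1.34-fold higher in ASO-L1 than in ASO-Ctr, and COL1A2, lower at log2 -0.73. Trophectoderm and macrophage markers summed to at most 1.71 and 1.66 CPM in any library. Endoderm markers summed to 68.2 to 144 CPM in ASO-Ctr and 143 to 310 CPM in ASO-L1, mostly CER1, with SOX17 at 1 read in all. Neuroectoderm markers summed to 392 to 454 and 527 to 604 CPM, mostly NES, and the part of these 3 lists in the results was not tested. In bulk RNA, fewer cells of a type and less RNA per cell cannot be told apart.

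Of the 10 genes, 9 passed the filter on low counts. Against ASO-Ctr, 8 of them were higher in ASO-L1 and 1, DDIT4, was lower, and 5 of the 8 were higher by more than 2-fold. Called here means an adjusted p below 0.05 over all 17264 genes tested with edgeR's quasi-likelihood test. This comparison called 44.3% of all genes tested, 21.2% higher and 23.1% lower, and 2.48% were called higher by more than 2-fold. The groups did not overlap, ASO-L1 being above, for 7 of the 9, against 16.3% of all genes. Against sO-L1 the counts were again 8 higher, 5 of them by more than 2-fold, and 1 lower, beside 44% of all genes called (21.1% higher and 22.9% lower, 2.29% higher by more than 2-fold). Here too 7 of the 9 did not overlap, against 16% of all genes. The comparisons share the ASO-L1 libraries, so they are not independent. Between sO-L1 and ASO-Ctr 0 of 9 were called, where edgeR called 50 genes in all (0.29%). That count ran from 10 (without replicate 2, or without replicate 3) to 410 (without the ASO-L1 library of replicate 1) when libraries were left out, and 0 members were called in each of those fits. Each gene's spread was estimated over all 12 libraries together, so the ASO-L1 libraries enter this test of the controls too. With that, 0 members called does not show equal levels in the 2 controls. Between them, 1232 genes and 1 of the 9 members had an unadjusted p under 0.05. The median log2 fold change of the 9 members was 1.21 against either control and -0.02 between the controls, while that of all genes was -0.00279, -0.00321 and 0.000801, in the order ASO-L1 against ASO-Ctr, ASO-L1 against sO-L1 and sO-L1 against ASO-Ctr.

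**Figure D1:**
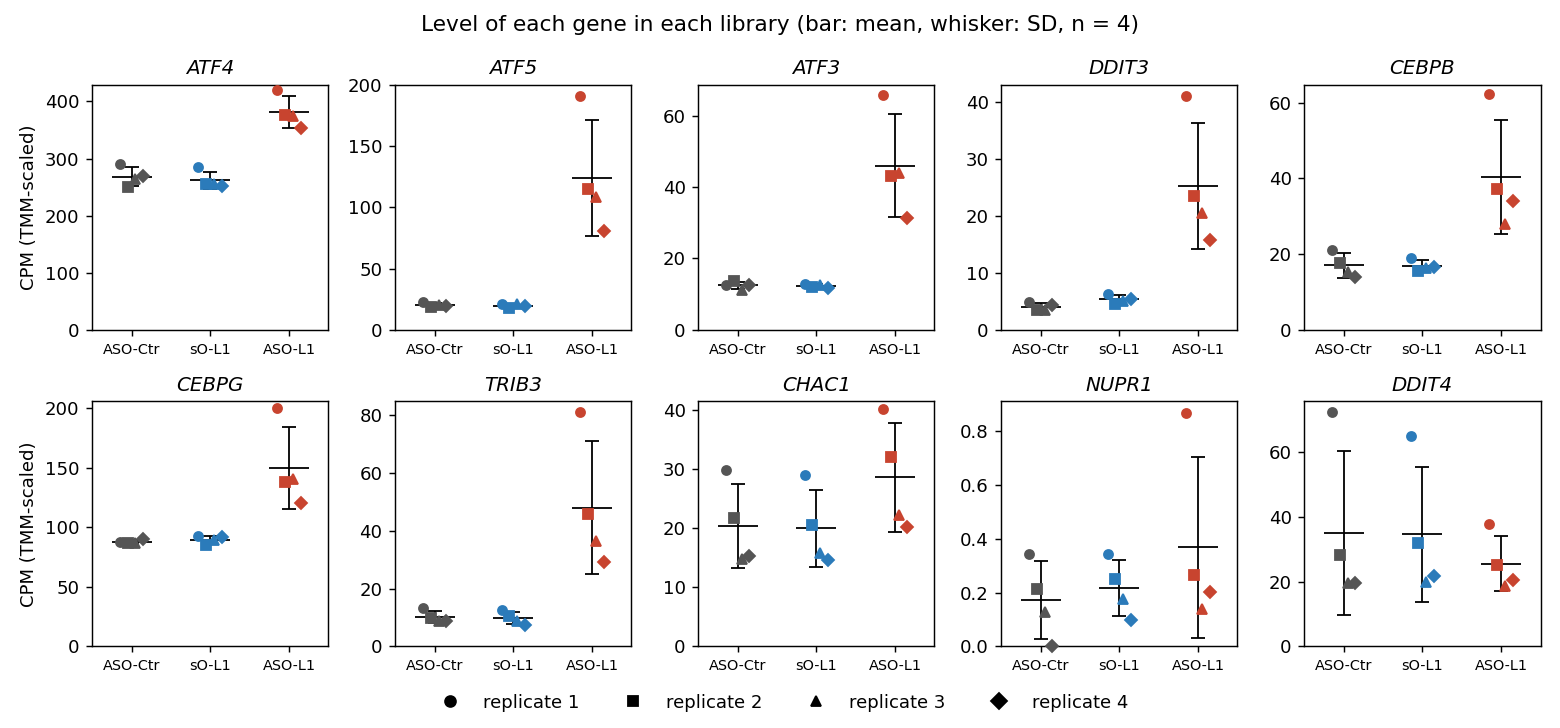
Level of each of the 10 genes in every library, in TMM-scaled CPM on linear axes from 0; the symbol gives the replicate number, the bar the mean and the whisker the SD (n = 4). ATF4, ATF5, ATF3, DDIT3, CEBPB, CEBPG and TRIB3 lie higher in every ASO-L1 library than in any control library, and in ASO-L1 replicate 1 is highest for all 10 genes.

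ATF4 had the highest level per length of the 10 genes and one of the smaller increases. Its levels in replicates 1 to 4 were 290, 249, 264 and 269 CPM in ASO-Ctr, 285, 255, 256 and 252 CPM in sO-L1, and 420, 376, 374 and 353 CPM in ASO-L1. All 4 ASO-L1 libraries stood above all 8 control libraries, and the spread within each group was narrow. The rise was 1.42-fold against ASO-Ctr (95% interval 1.34 to 1.504, log2 0.51, SE 0.04, adjusted p = 6.57e-08) and 1.45-fold against sO-L1 (adjusted p = 3.58e-08). Within replicate numbers the ratio to ASO-Ctr was 1.45, 1.51, 1.42 and 1.31. By size of the log2 increase against ASO-Ctr, ATF4 ranked 1618 of the 17264 genes tested, whereas DDIT3, ATF5, TRIB3 and ATF3 ranked 29, 31, 49 and 81. ATF4 has processed pseudogenes in the table, whose reads could be shared with it. ATF4P1 and ATF4P2 had 0 reads, and ATF4P3 and ATF4P4 stayed at or under 0.372 CPM in every library. Such low counts cannot show whether reads matching both places were left out or counted to ATF4.

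ATF5, a close relative of ATF4 whose mRNA is under the same kind of translational control, rose several-fold. It measured 22.7, 18.9, 20.4 and 19.2 CPM in ASO-Ctr, 21.1, 17.6, 20.9 and 19.4 CPM in sO-L1, and 191, 115, 109 and 80.6 CPM in ASO-L1. The control libraries formed a tight band, and the lowest ASO-L1 library was still several times above it. The fold was 5.87 against ASO-Ctr (95% interval 4.88 to 7.06, log2 2.55, SE 0.13, adjusted p = 1.03e-09) and 6.06 against sO-L1 (adjusted p = 9.62e-10). In the authors' deposited table for ASO-L1 against sO-L1 its log2 fold change was 2.62 at an adjusted p of 9.79e-11.

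ATF3, a bZIP protein that mostly represses and is induced by many kinds of stress, rose less. Its levels were 12.5, 13.6, 11.3 and 12.6 CPM in ASO-Ctr, 12.7, 12.1, 12.5 and 11.7 CPM in sO-L1, and 65.9, 43.1, 43.9 and 31.2 CPM in ASO-L1. The 8 control libraries lay within a narrow range and none reached the lowest ASO-L1 library. The fold was 3.56 against ASO-Ctr (95% interval 2.98 to 4.27, log2 1.83, SE 0.12, adjusted p = 1.63e-08) and 3.67 against sO-L1 (adjusted p = 1.52e-08).

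DDIT3 codes for CHOP, the C/EBP-family factor that pairs with ATF4 and is best known for its part in stress-induced death. It was at 4.97, 3.53, 3.46 and 4.35 CPM in ASO-Ctr and 6.30, 4.61, 5.03 and 5.47 CPM in sO-L1. In ASO-L1 it stood at 41.2, 23.5, 20.6 and 15.8 CPM, with no overlap with either control. The fold was 5.94 against ASO-Ctr (95% interval 4.76 to 7.41, log2 2.57, SE 0.15, adjusted p = 4.82e-09), the largest of the 9, and 4.56 against sO-L1 (log2 2.19, adjusted p = 1.56e-08). The intervals of the DDIT3 and ATF5 folds overlap widely, so their order is not resolved. DDIT3 was also the 1 member with an unadjusted p under 0.05 between the controls, at 1.30-fold in sO-L1 over ASO-Ctr (95% interval 1.02 to 1.66). It was higher within all 4 replicate numbers there, but its adjusted p over all genes was 0.653 in edgeR, so it was not called.

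The C/EBP partners of ATF4, CEBPB and CEBPG, had smaller fold changes than ATF5, ATF3 and DDIT3. CEBPB, an activator of inflammatory and stress genes, was at 21.2, 17.7, 15.2 and 13.9 CPM in ASO-Ctr and 19.0, 15.7, 16.3 and 16.7 CPM in sO-L1. In ASO-L1 it was at 62.2, 37.1, 28.0 and 34.0 CPM, above every control library. It rose 2.31-fold against ASO-Ctr (95% interval 1.97 to 2.71, log2 1.21, SE 0.11, adjusted p = 2.31e-07) and by the same fold, 2.31, against sO-L1 (adjusted p = 2.30e-07).

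CEBPG, a C/EBP protein without an activation domain that dimerises with ATF4, held a nearly constant level over the controls. Its levels were 88.0, 86.9, 87.1 and 90.2 CPM in ASO-Ctr, 92.5, 85.3, 89.3 and 91.7 CPM in sO-L1, and 200, 138, 140 and 120 CPM in ASO-L1. The 8 control libraries spanned only a few CPM and the lowest ASO-L1 library lay well above them. The rise was 1.67-fold against ASO-Ctr (95% interval 1.48 to 1.90, log2 0.74, SE 0.09, adjusted p = 3.55e-06) and 1.65-fold against sO-L1 (adjusted p = 4.66e-06). Its log2 fold change against ASO-Ctr was 0.45 once 1 surrogate variable was added to the model.

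TRIB3 is a pseudokinase that ATF4 and CHOP induce and that in turn holds ATF4 and AKT in check. It was at 13.1, 9.83, 8.82 and 8.64 CPM in ASO-Ctr, 12.5, 10.4, 8.76 and 7.50 CPM in sO-L1, and 81.0, 45.6, 36.3 and 29.03 CPM in ASO-L1. Every ASO-L1 library was above every control library, and in each group replicate 1 was highest and replicate 4 lowest. TRIB3 rose 4.51-fold against ASO-Ctr (95% interval 3.84 to 5.29, log2 2.17, SE 0.11, adjusted p = 1.03e-09) and 4.67-fold against sO-L1 (adjusted p = 9.62e-10).

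CHAC1 degrades glutathione and is a common reporter of the ATF4 branch, and its rise was among the smallest of the 8. It was at 29.9, 21.8, 14.8 and 15.3 CPM in ASO-Ctr, 29.04, 20.6, 15.9 and 14.7 CPM in sO-L1, and 40.2, 32.0, 22.3 and 20.2 CPM in ASO-L1. The groups overlapped, since the level differed more between replicate numbers than between groups. The highest library was 2.02, 1.98 and 1.99 times the lowest in ASO-Ctr, sO-L1 and ASO-L1. Within each replicate number ASO-L1 was the highest of the 3 groups, at 1.34, 1.47, 1.51 and 1.32 times ASO-Ctr. The model with the replicate number as a block gave 1.41-fold (95% interval 1.29 to 1.54, log2 0.49, SE 0.06, adjusted p = 6.89e-06) and 1.43-fold against sO-L1 (adjusted p = 3.90e-06). Without the block the same change was not called in edgeR (adjusted p = 0.138 and 0.124).

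NUPR1, a small chromatin-bound stress protein, was barely detected. Its counts in replicates 1 to 4 were 8, 9, 4 and 0 in ASO-Ctr, 12, 14, 6 and 3 in sO-L1, and 24, 11, 4 and 7 in ASO-L1. That is 0.171 ± 0.144, 0.217 ± 0.105 and 0.368 ± 0.336 CPM (SD, n = 4), and the groups overlapped. It failed the count filter, and an exact two-sided permutation test over libraries gave p = 0.4 for the pair ASO-L1 and ASO-Ctr and 0.6 for each other pair (Benjamini-Hochberg 0.6 for all 3). The smallest p that 4 against 4 libraries allow is 0.0286. That test leaves the replicate number out. Within replicate numbers NUPR1 was higher in ASO-L1 than in ASO-Ctr in 4 of 4 and than in sO-L1 in 3 of 4, and higher in sO-L1 than in ASO-Ctr in 4 of 4. An exact two-sided sign-flip test on these pairs, added after the data were seen, gave p = 0.125, 0.375 and 0.125, where 0.125 is the smallest p that 4 pairs allow. In replicate 3 NUPR1 had 4 reads in both ASO-L1 and ASO-Ctr, so library size alone set the order of that pair. A difference was not detectable at these levels.

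DDIT4, also called REDD1, an inhibitor of the growth kinase mTORC1 that hypoxia, glucocorticoids and ATF4 induce, was the 1 member that was lower in ASO-L1. It was at 72.6, 28.4, 19.5 and 19.6 CPM in ASO-Ctr, 64.9, 31.9, 19.8 and 21.8 CPM in sO-L1, and 37.7, 25.1, 18.8 and 20.7 CPM in ASO-L1. Replicate 1 was far above the others in each control group and the groups overlapped. The highest library was 3.72 times the lowest in ASO-Ctr, 3.28 times in sO-L1 and 2.01 times in ASO-L1. The log2 fold change was -0.29 against ASO-Ctr (95% interval -0.53 to -0.05, SE 0.12, adjusted p = 0.0495 in edgeR) and -0.33 against sO-L1 (adjusted p = 0.0278). Within replicate numbers the log2 difference from ASO-Ctr was -0.94, -0.17, -0.05 and 0.08, so replicate 1 carried most of it. Without replicate 1 the log2 fold change against ASO-Ctr was -0.05 (adjusted p = 0.575) and against sO-L1 -0.18 (adjusted p = 0.0258). Leaving out the ASO-Ctr or the ASO-L1 library of replicate 1 alone gave -0.14 (adjusted p = 0.321) and -0.10 (adjusted p = 0.241). Of 16 fits that left out libraries, 12 lost the call against ASO-Ctr. It turned to 0.09 (adjusted p = 0.356) with 1 surrogate variable. In the authors' deposited table DDIT4 had a log2 fold change of -0.36 against sO-L1 at an adjusted p of 0.119.

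**Figure D2:**
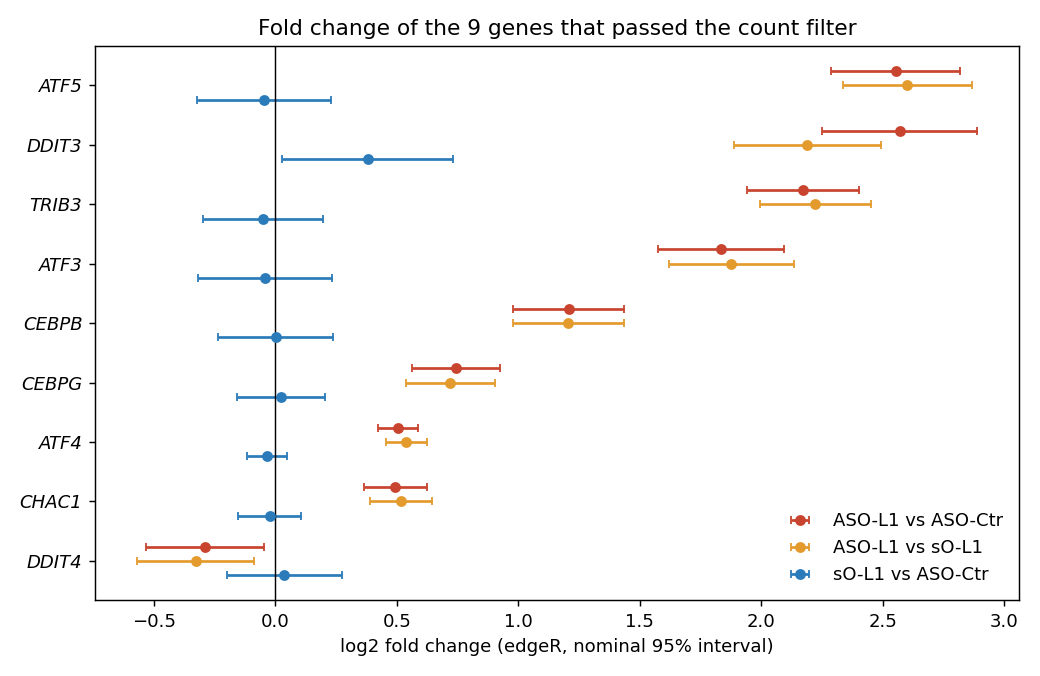
Log2 fold changes with nominal 95% intervals from edgeR for the 9 genes tested, in the 3 comparisons of the groups. Against ASO-Ctr and sO-L1 the values are 2.55 and 2.60 for ATF5 and 2.57 and 2.19 for DDIT3, and every interval between the 2 controls except that of DDIT3 includes 0.

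The members covered a wide range of responses. In ASO-L1 against ASO-Ctr the log2 fold changes ran from 2.57 (DDIT3) and 2.55 (ATF5) through 2.17 (TRIB3), 1.83 (ATF3) and 1.21 (CEBPB) to 0.74 (CEBPG), 0.51 (ATF4) and 0.49 (CHAC1). Neighbours whose 95% intervals overlap are DDIT3 and ATF5, ATF5 and TRIB3, TRIB3 and ATF3, CEBPG and ATF4, and ATF4 and CHAC1, while CEBPB stood apart from ATF3 above it and from CEBPG below it. As a description of how alike the genes were over the 12 libraries, log2 CPM was centred within each replicate number and on the gene's mean. ATF4 and CHAC1 were then the closest pair (root mean square difference 0.0466 log2 units), followed by ATF4 and CEBPG (0.152). Within the strongly raised genes the closest pairs were ATF3 with TRIB3 (0.181), ATF5 with TRIB3 (0.197) and ATF5 with DDIT3 (0.213). ATF5 and DDIT4 were the farthest apart (1.39). Centring takes out the differences between replicate numbers, so these distances largely follow the sizes of the fold changes. Before it, the SD over the ASO-Ctr libraries was 6.27% of the mean for ATF4 and 34.6% for CHAC1.

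Replicate number 1 stood high for these genes. In ASO-L1 replicate 1 was the highest library for 10 of 10 members, in sO-L1 for 10 of 10 and in ASO-Ctr for 8 of 10. In ASO-L1 replicate 4 was the lowest for 7 of 10. How often replicate 1 was highest among all genes was not counted, so this is not shown to be particular to the members. The size of the response differed by replicate number too. The ASO-L1 to ASO-Ctr ratio of ATF5 was 8.40, 6.07, 5.30 and 4.18 in replicates 1 to 4, and that of TRIB3 was 6.14, 4.61, 4.10 and 3.35. DDIT3 had ratios of 8.21, 6.57, 5.87 and 3.59. The ratios of ATF5, TRIB3 and DDIT3 were highest in replicate 1 and lowest in replicate 4. ATF3 had ratios of 5.25, 3.17, 3.88 and 2.48, CEBPB of 2.93, 2.09, 1.84 and 2.43, and CEBPG of 2.27, 1.59, 1.61 and 1.33. For these genes too replicate 1 was highest. ATF4 ranged only from 1.31 to 1.51 and CHAC1 only from 1.32 to 1.51. The libraries of ASO-L1 also spread more than the controls for the strongly raised genes. The highest ASO-L1 library was 2.79 times the lowest for TRIB3 and 2.37 times for ATF5, against 1.52 and 1.20 times in ASO-Ctr. ATF4 spread by 1.19 times in ASO-L1 and 1.16 times in ASO-Ctr. Depth moved with it in part, since replicate 1 had the fewest reads in ASO-Ctr (22.8 M) and in ASO-L1 (27.4 M) but not in sO-L1 (34.8 M). Its part was not tested. Without replicate 1 in all groups the fold against ASO-Ctr was 5.201 for ATF5, 5.30 for DDIT3, 4.06 for TRIB3 and 3.14 for ATF3, each still called.

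**Figure D3:**
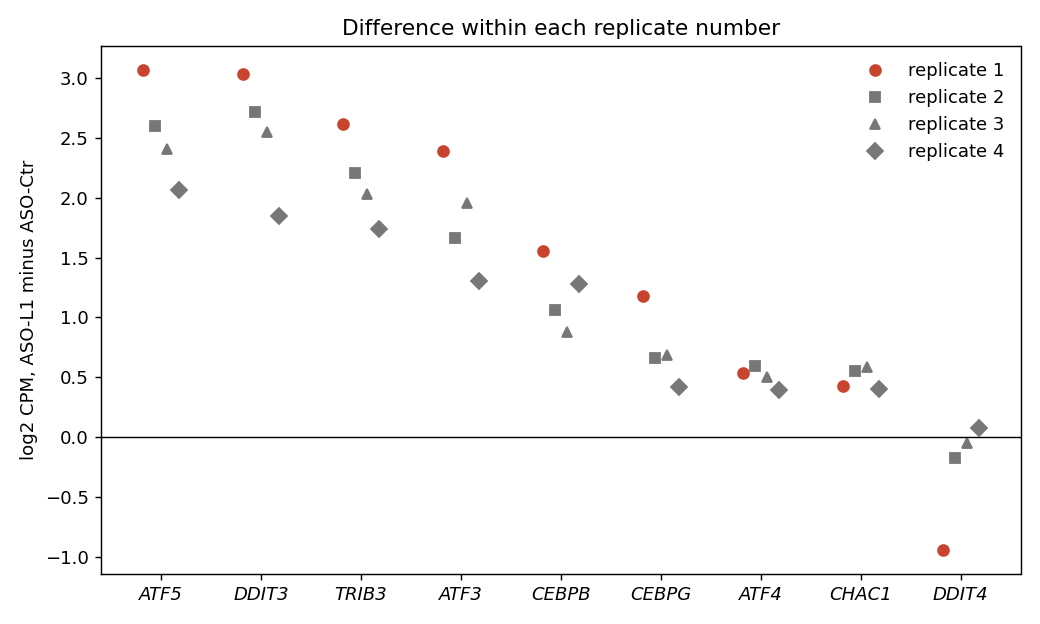
Difference in log2 CPM between ASO-L1 and ASO-Ctr within each replicate number, for the 9 genes tested, with replicate 1 in red. The symbols of ATF5 run from 3.07 to 2.06 and those of DDIT4 from -0.94 to 0.08, while those of ATF4 and CHAC1 lie close together.

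Levels of different genes were compared per length, as CPM per kilobase of merged exons (GENCODE 29). ATF4 was the highest in all 3 groups, at 107 ± 6.69 in ASO-Ctr, 104 ± 6.08 in sO-L1 and 152 ± 11.2 in ASO-L1 (SD, n = 4). In ASO-Ctr it was followed by CEBPG (19.96 ± 0.347), DDIT4 (17.0 ± 12.3), CHAC1 (9.94 ± 3.44), CEBPB (8.69 ± 1.64) and ATF5 (6.88 ± 0.588). DDIT3 (3.12 ± 0.547), ATF3 (3.09 ± 0.234) and TRIB3 (2.94 ± 0.609) lay below them within each other's spread, and NUPR1 was last. Neither DDIT4 nor CHAC1 can be placed firmly in that order, since their SDs span neighbouring genes. In ASO-L1 the second place per length was taken by ATF5 (41.9 ± 16.1), ahead of CEBPG (33.9 ± 7.85), CEBPB (20.6 ± 7.72) and DDIT3 (19.3 ± 8.47). ATF5 and CEBPG differ there by less than the SD of ATF5. TRIB3 (14.0 ± 6.70), CHAC1 (13.9 ± 4.48), DDIT4 (12.4 ± 4.14) and ATF3 (11.4 ± 3.57) lay together below. Summed over the 10 genes, now not per length, the level was 445 to 555 CPM in ASO-Ctr, 441 to 543 CPM in sO-L1 and 705 to 1140 CPM in ASO-L1. ATF4 made up 52.2% to 59.4% of that sum in ASO-Ctr and 36.8% to 50.1% in ASO-L1, as several others rose by more.

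Outside the members, other genes followed them closely. For each member with a log2 fold change beyond 1 in ASO-L1 against ASO-Ctr, the 2 genes with the smallest root mean square difference over the 12 libraries were picked from 12550 expressed genes. ATF5 was followed most closely by AHNAK (0.158 log2 units) and FLNC (0.190), both large proteins of the cell cortex. ATF3 was followed by FOSL2 (0.0978), a FOS-family bZIP factor, and MCF2 (0.111), and DDIT3 by the nuclear long non-coding RNA NEAT1 (0.144) and by VGF (0.190). TRIB3 was followed by the growth factor PDGFA (0.124) and again by NEAT1 (0.155), and CEBPB by RP5-1129J21.3 (0.0769) and MIR4453 (0.0869). The measure ranks likeness of pattern, and most of it is the step between ASO-L1 and the controls, which 21.2% of all genes took upward.

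Upstream of ATF4, the kinases and the phosphatase of eIF2 went in both directions. Of 12 genes tested, 4 were higher in ASO-L1 than in ASO-Ctr and 5 lower, with a median log2 fold change of -0.04. These are 33.3% and 41.7% of the list, beside 21.2% and 23.1% of all genes tested. PPP1R15A, the stress-induced subunit (GADD34) that brings the phosphatase to eIF2, rose 2.35-fold from 27.4 ± 0.839 to 64.8 ± 12.6 CPM (SD, n = 4). The catalytic subunits PPP1CC and PPP1CA and the constitutive subunit PPP1R15B were 1.21-fold, 1.11-fold and 1.22-fold higher. The kinases EIF2AK4 (GCN2), EIF2AK1 (HRI) and EIF2AK2 (PKR) fell, with log2 fold changes of -0.35, -0.22 and -0.21, and so did IMPACT, an inhibitor of GCN2, at -0.26, and DNAJC3, an inhibitor of PERK, at -0.44. The kinase EIF2AK3 (PERK) was not called (log2 -0.10), and EIF2AK2 was not called against sO-L1 (log2 -0.13). The list of 9 genes for the subunits of eIF2 and of eIF2B, the target of Trans-ISRIB, also holds EIF2A, a separate initiation factor. In it 3 were higher (EIF2S1, EIF2B4 and EIF2S3, at log2 0.37, 0.29 and 0.15), EIF2B5 was lower at -0.22 and 5 were not called, which is 33.3% higher and 11.1% lower.

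Downstream, the metabolic targets of ATF4 were split. Of 16 genes of amino acid synthesis and one-carbon metabolism, 7 were higher and 7 lower, with a median log2 fold change of 0.03. The mitochondrial folate enzyme MTHFD2 rose 1.38-fold, and the serine synthesis enzyme PSAT1 and the aspartate aminotransferase GOT1 rose 1.20-fold and 1.21-fold. CTH, which makes cysteine from cystathionine and was picked after its values were seen as the lower gene with the smallest adjusted p, fell at log2 -0.45. Of 12 amino acid transporters, 5 were higher and 3 lower (median 0.13). SLC3A2, the shared heavy chain of several of them, rose 2.03-fold from 242 ± 11.4 to 497 ± 107 CPM (SD, n = 4), SLC7A1 rose 1.29-fold, and SLC43A1, SLC1A4 and SLC7A5 were 1.27-fold, 1.24-fold and 1.08-fold higher. SLC36A4, SLC38A1 and SLC7A3 fell, at log2 -0.62, -0.33 and -0.15. Of 13 genes of tRNA charging and export, 7 were higher and 3 lower (median 0.15), with CARS and AARS at log2 0.34 and 0.26 and TARS, SARS and LARS at -0.40, -0.34 and -0.27. The shares of these 3 lists called higher were 43.8%, 41.7% and 53.8%, beside 21.2% of all genes, and the shares called lower were 43.8%, 25% and 23.1%, beside 23.1% of all genes.

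Of 24 other stress targets of ATF4 and CHOP tested (25 listed), 17 were higher and 3 lower, with a median log2 fold change of 0.36. That is 70.8% higher and 12.5% lower, beside 21.2% and 23.1% of all genes. SESN2, a stress-induced inhibitor of mTORC1, rose 2.34-fold, the thioredoxin inhibitor TXNIP 2.24-fold and the autophagy receptor SQSTM1 1.89-fold. GADD45G, BCL2L11 (BIM) and PMAIP1 (NOXA), the last of them also a p53 target, fell, at log2 -0.89, -0.41 and -0.12. Other genes of these kinds on the list went up. GADD45A, GADD45B and BBC3 (PUMA) were 3.83-fold, 2.47-fold and 2.22-fold higher in ASO-L1 than in sO-L1. Some of these genes are targets of p53 as well and stand on both lists. Of 30 p53 targets, 20 were higher and 1, PMAIP1, was lower (66.7% and 3.33%, median 0.56), with PHLDA3 at 2.94-fold and the cell cycle inhibitor CDKN1A at 5.23-fold. The levels of CDKN1A were 5.89 ± 3.16 CPM in ASO-Ctr and 30.3 ± 13.9 CPM in ASO-L1 (SD, n = 4). The part of p53 in the values of the members was not tested.

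Of 42 other bZIP factors tested (46 listed), 16 were higher, 8 lower and 18 not called (38.1% and 19% called, beside 21.2% and 23.1% of all genes), at a median of 0.06. FOSL1, FOSL2 and JUN, all AP-1 subunits, rose 6.02-fold, 3.41-fold and 2.10-fold. FOSL1 started low, at 0.965 CPM in ASO-Ctr. Not every AP-1 subunit rose. In the comparison with sO-L1, JUND was higher (1.34-fold), while FOS, FOSB and JUNB were not called (log2 -0.17, 0.20 and 0.06). The mean of FOS was lower in ASO-L1 than in either control. It was 43.7 ± 10.9 CPM in ASO-Ctr, 39.9 ± 9.12 CPM in sO-L1 and 34.8 ± 6.35 CPM in ASO-L1 (SD, n = 4). ATF6 and XBP1 carry the other branches of the unfolded protein response. Of 24 of their endoplasmic reticulum targets 13 were lower, 2 higher (DERL2 and HERPUD1, at log2 0.18 and 0.22) and 9 not called, with a median of -0.18. That is 54.2% lower and 8.33% higher, beside 23.1% and 21.2% of all genes. The chaperones HSP90B1 and HSPA5 (BiP) fell at log2 -0.62 and -0.39. For DDIT4, the list of hypoxia targets held 5 higher and 11 lower of 22 (22.7% and 50%, median -0.24), with BNIP3 at -1.12, BNIP3L at -0.93 and KDM3A at -0.55, and SLC2A3, NDRG1, ADM, VEGFA and P4HA2 higher. Of 21 other regulators of mTORC1 and AKT tested, 3 were higher (SESN2, SESN1 and NPRL2) and 6 lower (14.3% and 28.6%), SESN3 among the lower at -0.51. For TRIB3 and CHAC1, of 13 paralogs and glutathione enzymes tested 4 were higher and 3 lower (30.8% and 23.1%). TRIB1 and TRIB2, paralogs of TRIB3, rose 1.23-fold and 1.18-fold, and CHAC2, the paralog of CHAC1, fell at log2 -0.22. GPX4 and GSR were 1.15-fold and 1.17-fold higher, and GGT7 and GGCT were lower at -0.62 and -0.15. Against sO-L1, with the same ASO-L1 libraries, 17 stress targets were higher and 3 lower, 21 p53 targets higher and 1 lower, and 15 other bZIP factors higher and 8 lower. Of the endoplasmic reticulum targets 1 was higher and 13 lower, and of the hypoxia targets 3 and 11. The amino acid synthesis genes had 5 higher and 5 lower, the transporters 5 and 2. The eIF2 kinases and phosphatase had 4 and 4, and the paralogs and glutathione enzymes 4 and 5, with CHAC2 not called there. Between sO-L1 and ASO-Ctr, 0 genes of any of these 12 lists were called.

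**Figure D4:**
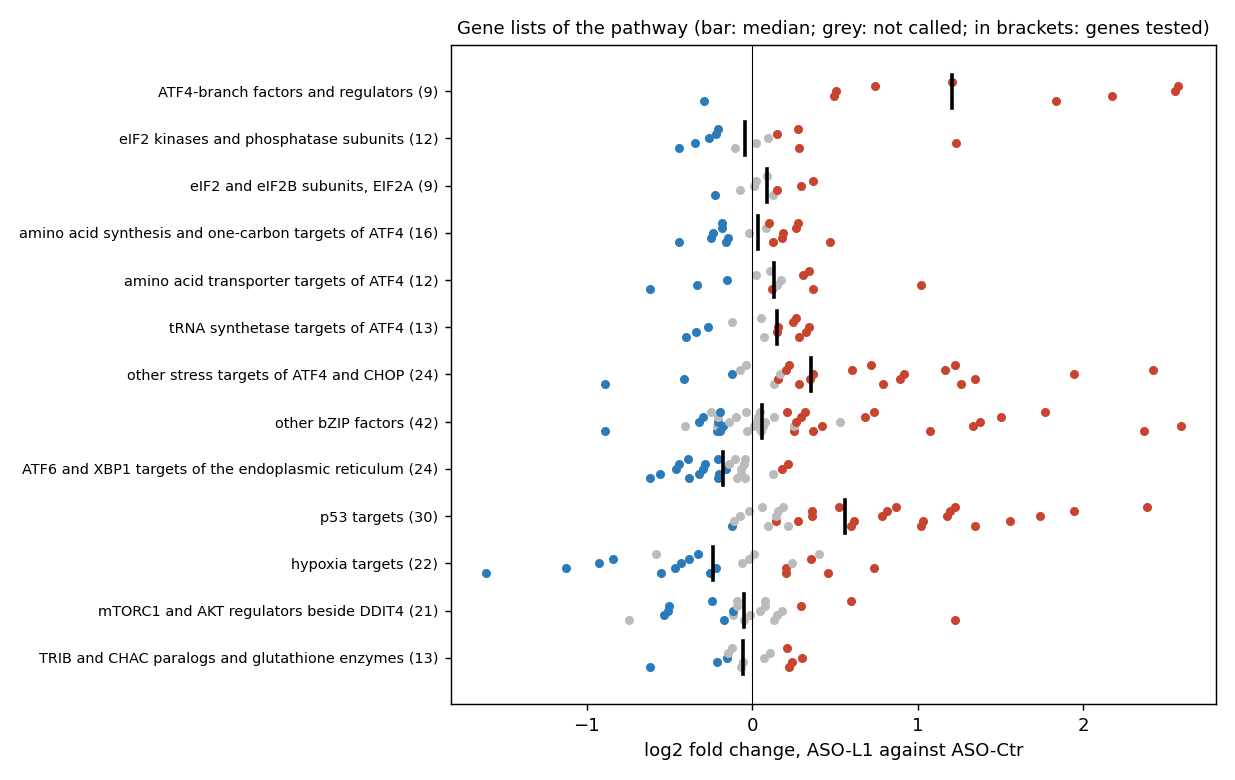
Log2 fold change in ASO-L1 against ASO-Ctr of every tested gene in the 10-gene group (top row) and in 12 related lists, with genes called higher in red, called lower in blue and not called in grey; the bar is the median of the list. The median is 1.21 for the ATF4-branch genes and 0.56 for p53 targets, and -0.18 for the ATF6 and XBP1 targets.

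The authors' deposited table for ASO-L1 against sO-L1 holds all 10 members. Its log2 fold changes were 2.62 for ATF5, 2.24 for TRIB3, 2.22 for DDIT3, 1.87 for ATF3, 1.23 for CEBPB, 0.71 for CEBPG, 0.54 for ATF4 and 0.53 for CHAC1. In the authors' deposited table the adjusted p was 4.18e-05 for CHAC1, 0.231 for NUPR1 (log2 0.64) and 0.119 for DDIT4.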

How the data were processed

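RNA of 12 libraries, 4 in each of 3 groups, was sequenced after directional poly(A) selection from 80 to 130 ng of total RNA. Raw gene counts were deposited by the authors after removal of duplicate reads, as the labels put it, which lowers abundant genes more than rare ones. The submitters' processing notes name hg19, TopHat2 2.0.13, Trim Galore 0.4.0 and, from Subread 1.5.0, featureCounts. Neither annotation nor strand setting is given in the sources used here. The authors also deposited a batch-corrected log2 table and a table of log2 fold changes with p-values (ASO-L1 against sO-L1). The moderated statistic and log-odds score in that deposited table were not used. No entry counts LINE1, so whether the oligo lowered its target was not analysed here.

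Counts were fitted in R 4.3.3 with edgeR 4.0.16 by two-sided quasi-likelihood F-tests after TMM scaling and filterByExpr (count minimum 10). The model had group and replicate number and all 12 libraries. The filter kept 17264 of 53717 genes, and Benjamini-Hochberg values cover these. The biological coefficient of variation was 0.0634. Levels are TMM-scaled CPM, and log2 CPM used a prior count of 2. Intervals of fold changes come from the moderated degrees of freedom (6 residual, 10.8 prior). Depth was 22.8 to 55.1 M counts per library, and the floors reflect depth alone. The intervals take in counting error and the spread between libraries. The code was tested on simulated data with known fold changes.

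Replicate numbers are those in the labels. In the 10549 genes whose mean count reached 200, deviations from the group mean correlated at r = 0.216 to 0.725 in all 12 pairs of libraries of the same number, above the 0.1 set for pairing, so the number was kept as a block. No pair of libraries was identical (0 of 18).

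The members and the 12 gene lists, written from general knowledge, were chosen with earlier results of these data known. Named genes are the 10 members, from each list the up to 3 called genes of lowest adjusted p, all genes called in 1 direction where 5 or fewer were, and for likeness the 2 closest of the genes averaging log2 CPM 1 or more. Some further genes, relatives of named ones among them, were added after their values were seen. Marker lists cover embryonic stem cell, naive-type, fibroblast, trophectoderm, endoderm, neuroectoderm and macrophage genes. Alternatives were other scalings, no filter, DESeq2 1.42.0, no block, 1 surrogate variable (sva 3.50.0), limma 3.58.1 on the deposited log2 values, and leaving out libraries.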

Additional observations from a re-analysis of the deposited data

Results flagged for a closer look

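The gap of the highest or lowest library to its neighbour, as a share of the group's range, was compared with Dixon's 95% critical value for 4 samples in 30 groups, the 10 genes in each of 3 groups of libraries. About 1 in 20 such groups passes it by chance, and 2 did. ATF4 in replicate 1 of sO-L1 was at 284.6 CPM, far from the next library at 256.0 CPM (ratio 0.868). DDIT4 in replicate 1 of ASO-Ctr was at 72.6 CPM, far from the next at 28.4 CPM (ratio 0.833). Both are libraries of replicate number 1.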

How the results depend on the processing

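ATF4, ATF5, ATF3, DDIT3, TRIB3, CEBPB and CEBPG stayed called in ASO-L1 against either control under each of the 8 other settings and in each of the 16 fits that left out libraries. CHAC1 kept its call in all of these but the fit without the replicate block (pairing by number), which called 7 of 9 members in each ASO-L1 comparison, and 5893, 5782 and 17 genes in ASO-L1 against ASO-Ctr, ASO-L1 against sO-L1 and sO-L1 against ASO-Ctr. The DDIT4 call against ASO-Ctr was lost in 6 of 8 other settings, and in another, with 1 surrogate variable, the direction turned (log2 0.0932), and its values without single libraries or replicate numbers ran from -0.402 to -0.0506. Against sO-L1 its call was lost in 3 of 8 other settings and 5 of 16 fits that left out libraries. Members called in such fits numbered 8 to 9 in both ASO-L1 comparisons. Genes called between sO-L1 and ASO-Ctr moved from 50 to 141 without the filter, 89 with DESeq2, 17 with no replicate block, 468 with 1 surrogate variable and 209 with limma on the deposited log2 values, and from 10 to 410 when libraries were left out, 410 without ASO-L1 replicate 1. Members called there stayed at 0 in every setting, and DDIT3 came to an adjusted p of 0.0654 without ASO-L1 replicate 1. Between these controls, where no member was called, signs changed for CEBPB without the block (-0.00348) and with 1 surrogate variable (-0.0434), and for CEBPG with 1 surrogate variable (-0.0180). When libraries were left out, the log2 values between the controls ran from -0.150 to 0.0672 for ATF3, -0.151 to 0.0726 for ATF5, -0.0850 to 0.116 for CEBPB, -0.0567 to 0.0830 for CEBPG, -0.0620 to 0.0115 for CHAC1, -0.0343 to 0.202 for DDIT4 and -0.139 to 0.0573 for TRIB3. The cause was not tested. NUPR1 lies at the limit set by depth.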
